A study of Homo sapiens with 4 samples.

Results

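The GPRC5 genes encode orphan G protein-coupled receptors of class C. In HEK293 cells 3 of the 4 members, GPRC5A, GPRC5B and GPRC5C, stood above the detection baseline, against 52.7% of all named genes. GPRC5D stood below it, but above some lower baselines, such as that without the control genes SPATA5 and SPATA13. GPRC5C fell just below a stricter baseline. The members were taken by name, and their probes were those whose RefSeq accession belongs to one of the genes, which gave 12 of the 71998 probes on the array and 4 of the 17217 named genes. Each gene had a single target with 3 probes, so the family was measured in full but through 1 transcript accession per gene. The samples were 4 biological replicates of 1 untreated group of HEK293 cells, an adenovirus-transformed line that derives from human embryonic kidney and is common in receptor laboratories. They were grown in medium with serum, penicillin and streptomycin and no stated treatment, each with its own plate and RNA extraction. The cDNA made from total RNA carried the single dye Cy3 on a NimbleGen array of 60-mer probes. With a single line and a single group there was no comparison between conditions, and a receptor's message per cell and the share of cells that make it cannot be told apart in bulk RNA.

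As background, class C receptors include the metabotropic glutamate receptors, the GABA-B receptors and the calcium-sensing receptor, most of which bind their ligand with a large extracellular domain. The GPRC5 proteins have only a short extracellular end and no agreed natural ligand. The first member was found as a gene that retinoic acid, the active form of vitamin A, switches on, and the family carries the name retinoic acid-induced for that reason. GPRC5A is known mainly from lung epithelium, where it acts as a tumour suppressor in mice, and GPRC5B from brain and pancreatic islets. GPRC5C is found in kidney among other tissues, and GPRC5D in plasma cells and hair follicles, which has made it a drug target in multiple myeloma.

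Promoter windows from RefSeq (GRCh38.p14, from 250 bases before to 50 bases after the start of the gene) were at hand for GPRC5B and GPRC5D, a member above the baseline and the member below it. Those of GPRC5A and GPRC5C were not used here. They are printed to show how much the windows differ in CpG dinucleotides, which stand in capitals, at chr16:19885585-19885884 on the minus strand for GPRC5B and chr12:12952121-12952420 on the minus strand for GPRC5D.
GPRC5B: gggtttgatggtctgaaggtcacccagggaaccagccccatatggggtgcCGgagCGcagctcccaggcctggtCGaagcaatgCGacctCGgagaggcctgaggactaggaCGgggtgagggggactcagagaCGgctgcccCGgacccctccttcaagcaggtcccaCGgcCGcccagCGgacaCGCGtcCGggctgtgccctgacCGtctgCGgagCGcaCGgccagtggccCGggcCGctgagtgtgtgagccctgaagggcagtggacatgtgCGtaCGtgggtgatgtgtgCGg
GPRC5D: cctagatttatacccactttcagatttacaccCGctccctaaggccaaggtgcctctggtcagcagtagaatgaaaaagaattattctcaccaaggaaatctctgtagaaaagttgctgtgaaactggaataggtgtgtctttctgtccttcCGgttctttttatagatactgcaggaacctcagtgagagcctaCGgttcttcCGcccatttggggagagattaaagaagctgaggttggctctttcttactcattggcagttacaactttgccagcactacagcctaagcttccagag
The window of GPRC5B held 23 CpG dinucleotides and 68.3% G and C, and that of GPRC5D held 4 and 45.0%. The median over 35116 promoter windows was 14 CpG dinucleotides, 35.8% of windows held at least as many as GPRC5B, and 29.6% held at most as many as GPRC5D. Among other measured genes with 23 CpG dinucleotides in the window 278 of 380 (73.2%) had a mean distance above the baseline. Among those with 4 it was 65 of 390 (16.7%), and over all named genes the share was 52.7%. Whether the CpG count bears on the calls of the members was not tested. The hexamer AGGTCA, a half-site of retinoic acid response elements, was searched on both strands. It occurred 1 time in the GPRC5B window and did not occur in the GPRC5D window, and 13.8% of all windows held it. The half-site repeated with a spacer, as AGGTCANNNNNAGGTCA or AGGTCANNAGGTCA, was in neither window, and these were found in 2 and 1 of all windows. Only these exact letters were searched, and so few windows hold them that their absence here says nothing of a response element. The TATA box letters TATAAA, on either strand, occurred 2 times in the GPRC5D window and not in that of GPRC5B, against 11.5% of all windows with a match. These are matches of letters in a short window and say nothing of binding in these cells.

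The scale of the measurements has to be set out first. A gene's level is the log2 of the mean of its probes, and its distance is that level minus a baseline, which the study defined as the mean plus 2 SD of seminal proteins thought to be silent in the line. The baseline came from 10 measured control genes and was 9.47, 9.94, 10.69 and 10.32 log2 units on replicates 1 to 4. Probes differ in affinity, so a distance says whether a message was seen above the control genes. It does not rank the messages of different genes by amount. Ranked values differed by less than 0.01 at 99.97% of ranks between replicates 1 and 2 and at 99.99% between replicates 3 and 4, but at 1.23% to 1.25% of ranks across these pairs. All 10 widely used reference genes lay above the baseline. Of the 6 genes taken as markers of the line 5 did, among them KRT8, KRT18, VIM and NEFL, while the kidney factor PAX2 lay at -1.63 ± 0.74 (SD, n = 4). NEFM, a neurofilament and the remaining one of these, had levels of 13.57, 8.32, 13.09 and 8.08 on replicates 1 to 4, high on replicates 1 and 3 and low on 2 and 4. Its mean distance was 0.66 ± 3.08 (SD, n = 4, limma adjusted p = 0.064), and it lay above the baseline on 2 of the 4 arrays.

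GPRC5A had levels of 11.61, 11.52, 13.11 and 11.70 log2 units on replicates 1 to 4. Replicate 3 was the highest by all 3 probes, and the other 3 arrays lay close together. The baseline was also highest on replicate 3, and the distances were 2.14, 1.58, 2.42 and 1.38 log2 units, a narrower spread than that of the levels. The mean distance was 1.88 ± 0.48 (SD, n = 4), above the baseline on all 4 arrays, with a limma adjusted p of 1.4e-07. Replicates 3 and 4 shared a distribution of values and still differed by 1.41 log2 units in GPRC5A, a larger difference than 94.9% of genes showed between those arrays, while replicates 1 and 2 differed by 0.08. The mean distance was 2.28 on replicates 1 and 3 alone and 1.48 on replicates 2 and 4 alone. The second probe was the brightest on each array, at 12.17, 12.46, 13.69 and 12.42. The third was the dimmest and fell just under the baseline on replicate 2, at 9.91. Without the brightest probe GPRC5A was at 1.32 ± 0.66 (SD, n = 4, limma adjusted p = 0.00023).

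GPRC5B showed the widest spread of the family over the arrays. Its levels were 10.76, 12.33, 11.30 and 12.97 on replicates 1 to 4. Replicates 2 and 4 were high and replicates 1 and 3 low, by each of the 3 probes, and replicate 4 was the highest and replicate 1 the lowest for each probe. The differences were 1.57 log2 units between replicates 1 and 2 and 1.67 between replicates 3 and 4, larger than those of 93.8% and 97.3% of genes in the same pairs of arrays. The SD of the level was 0.99 log2 units, above that of 95.4% of genes, whose median was 0.42. The high arrays of GPRC5B were the low arrays of NEFM and the reverse, and the part of this array difference in the result was not tested. The distances were 1.29, 2.39, 0.61 and 2.65, with a mean of 1.74 ± 0.95 (SD, n = 4, limma adjusted p = 1.1e-06). The test gave all genes the same standard error, 0.351, so this p does not reflect the spread of GPRC5B itself. The SD of its distance was above that of 89.1% of genes. On replicates 1 and 3 alone the mean distance was 0.95 and the limma test no longer passed (adjusted p = 0.151), and on replicates 2 and 4, the high arrays, it was 2.52. The probes of GPRC5B lay near each other, with a mean range of 0.62 log2 units within an array, and 3.72% of all targets had a smaller one. The gene IQCK overlaps GPRC5B in the annotation, and the labelling of double-stranded cDNA with random primers does not keep the strand. IQCK itself was at 0.09 ± 0.86 (SD, n = 4, limma adjusted p = 0.764).

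The levels of GPRC5C were 11.58, 10.82, 11.95 and 11.05 on replicates 1 to 4. Here replicates 1 and 3 were the higher arrays, the reverse of GPRC5B, though with smaller steps of 0.76 and 0.90 log2 units within the pairs. The distances were 2.11, 0.88, 1.26 and 0.73, all above 0, with a mean of 1.25 ± 0.62 (SD, n = 4, limma adjusted p = 0.00049). The mean distance was 1.68 on replicates 1 and 3 alone and 0.81 on replicates 2 and 4 alone. All 3 probes exceeded the baseline on every array. The first probe, at 10.03 to 10.90, was the dimmest on each array. With any probe left out the mean distance ran from 0.93 to 1.51, and the limma adjusted p was at most 0.0091. The probes belong to a single RefSeq accession, and other transcripts of the gene were not measured by targets of their own.

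For GPRC5D the levels were 8.39, 8.39, 8.90 and 8.01 on replicates 1 to 4, below the baseline on each array. The distances were -1.08, -1.54, -1.79 and -2.31 log2 units, with a mean of -1.68 ± 0.51 (SD, n = 4). The level rested largely on 1 of its probes. The first probe gave 9.62, 9.70, 10.23 and 8.72 on replicates 1 to 4, and lay above the baseline on replicate 1. The second gave 6.11, 6.05, 6.88 and 6.77, and the third 7.21, 6.78, 6.82 and 7.92. The first probe therefore supplied 54.6% to 83.9% of the linear signal of the gene. The range among the probes averaged 3.13 log2 units, wider than that of 83.5% of targets. With the first probe left out the mean distance fell to -3.22 ± 0.53 (SD, n = 4), near the -3.06 that was the median of the control genes. An antisense gene, GPRC5D-AS1, overlaps GPRC5D in the annotation, and which strand the first probe reported cannot be told from these values.

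**Figure D1:**
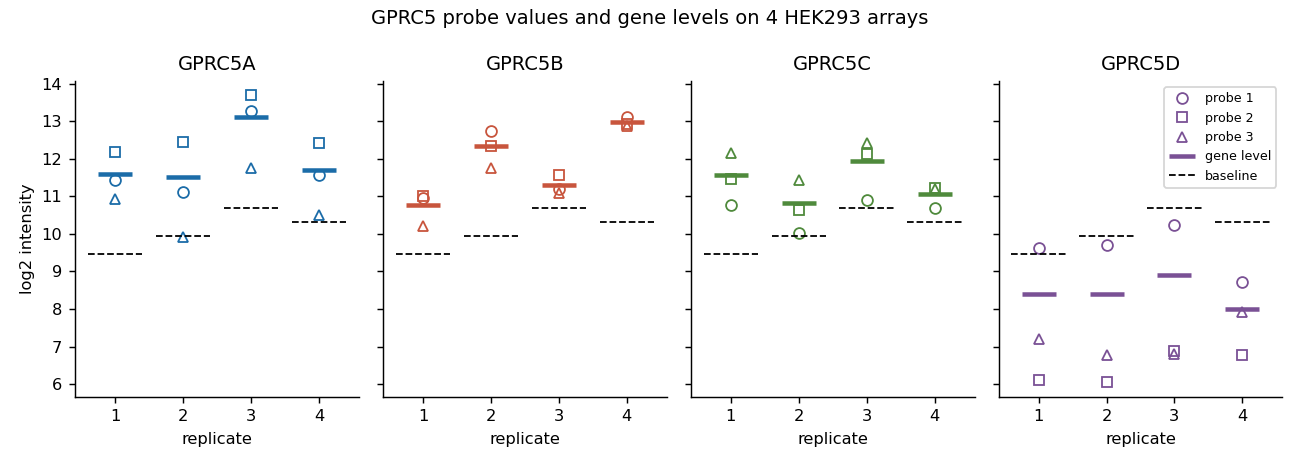
The plot gives log2 intensity on the y axis for each of the 4 replicates on the x axis, with open symbols for the 3 probes of a gene, thick bars for the gene level and dashed lines for the baseline of that array. The gene levels of GPRC5A, GPRC5B and GPRC5C lie above the dashed lines on every array, the third GPRC5A probe falls just under the line on replicate 2, GPRC5B moves between replicates with its probes close together, and the first probe of GPRC5D stands apart from the other probes.

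Counted together, 3 of the 4 members were detected by a mean distance above 0, against 52.7% of all 17217 named genes. The same 3 exceeded the baseline on every array, where the share over all genes was 45.0%, and the same 3 passed the limma test, where it was 45.9%. With 4 members the share cannot be set apart from these backgrounds.

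Olfactory receptor genes gave a second background, which are known mainly from the nose. Of 364 such genes, 1 had a mean distance above 0. The levels of GPRC5A and GPRC5B were higher than those of all 364 on each of the 4 arrays, and GPRC5C was higher than 364 on replicates 1, 3 and 4 and than 363 on replicate 2. GPRC5D was higher than 356, 356, 360 and 344 of them on replicates 1 to 4, in the upper tail of these genes. Set probe against probe, its first probe exceeded 1061 to 1090 of the 1092 olfactory receptor probes. Its second exceeded 429 to 514, near the middle of them. Its other probe exceeded 947, 884, 463 and 1008 on replicates 1 to 4. All 9 probes of the other members exceeded at least 1085 of the 1092.

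**Figure D2:**
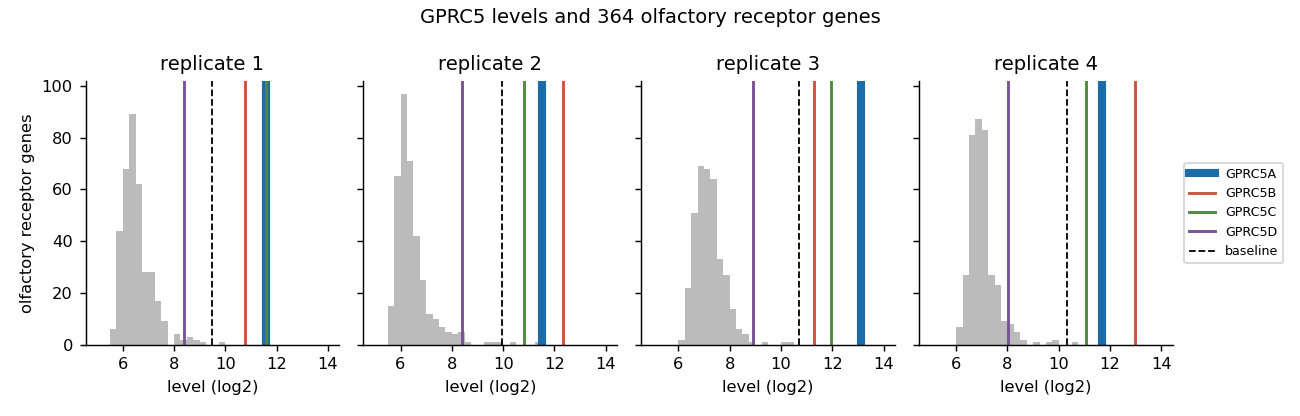
Each panel is an array, with the log2 level on the x axis and the number of olfactory receptor genes in bins of the level on the y axis in grey. Coloured lines mark the levels of the 4 members, with GPRC5A drawn wider because GPRC5C lies on it on replicate 1, and the dashed line the baseline; GPRC5D falls at the upper edge of the grey distribution on all 4 arrays and the other members to the right of the baseline.

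The height of the baseline decided how GPRC5D was called. The controls SPATA5 (now AFG2A) and SPATA13 had mean levels of 9.97 and 9.72, and the other 8 control genes had mean levels from 6.53 to 7.25. Without this pair of genes the mean baseline fell from 10.10 to 7.78 log2 units and GPRC5D stood at 0.65 (limma adjusted p = 0.016). With olfactory receptor genes as controls it stood at 0.40 (limma adjusted p = 0.098). When its first probe was left out as well, these distances became -0.90 and -1.14. GPRC5A, GPRC5B and GPRC5C stood at 4.21, 4.06 and 3.57 without SPATA5 and SPATA13, and at 3.96, 3.82 and 3.33 against olfactory receptor genes. With a stricter baseline of 3 SD they stood at 0.56, 0.42 and -0.072, and none of the 3 passed the limma test (adjusted p = 0.22, 0.40 and 1.0).

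**Figure D3:**
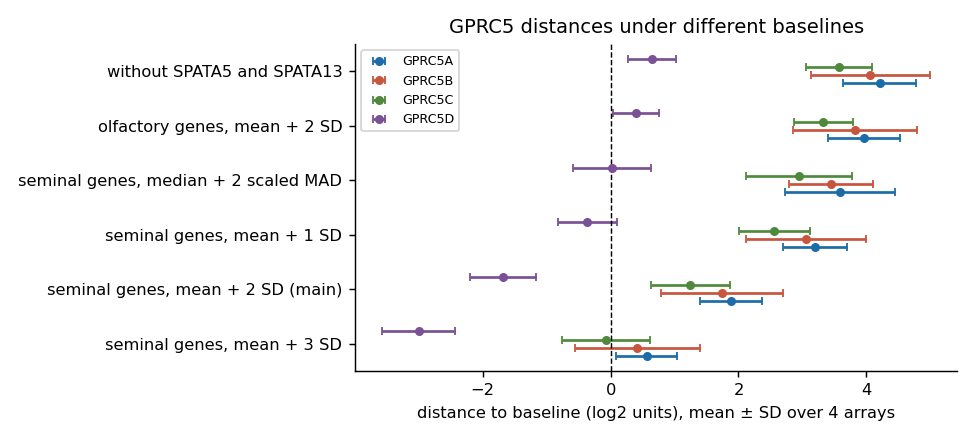
Mean distances to the baseline in log2 units (x axis, points, with bars for the SD over 4 arrays) are given for the 4 members under 6 definitions of the baseline (y axis). GPRC5D changes side as the baseline falls, and GPRC5C lies at -0.072 under 3 SD while GPRC5A and GPRC5B stay above 0 in all 6.

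Among the other class C receptors the array gave values for 11 genes with known ligands and 2 further orphans. Of the 11 with ligands 1 was detected, the GABA-B subunit GABBR1, with 2.87 ± 0.53 (SD, n = 4, limma adjusted p = 7.7e-16). The median distance of the 11 was -2.75, against 0.26 over all genes. Of the other orphans, GPR158 and GPR179, 0 of 2 were detected, and their distances were -3.50 and -2.29. The limma test called 0 of them also at an unadjusted p under 0.05. It is one-sided, so it could not call genes with a mean distance below 0. Of the 17 class C genes examined, 4 thus lay above the baseline, 3 of them GPRC5 members, against 52.7% of all genes. These counts moved with the baseline. Without SPATA5 and SPATA13 all 4 members and 6 of the others were above it. With olfactory receptor genes as controls 4 members and 3 of the others were. The share of 52.7% holds for the main baseline only. A lower baseline raises the count of all genes too, so these counts are no result about class C receptors. Over all alternatives the count of all genes ran from 6731 to 12747 of 17217.

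**Figure D4:**
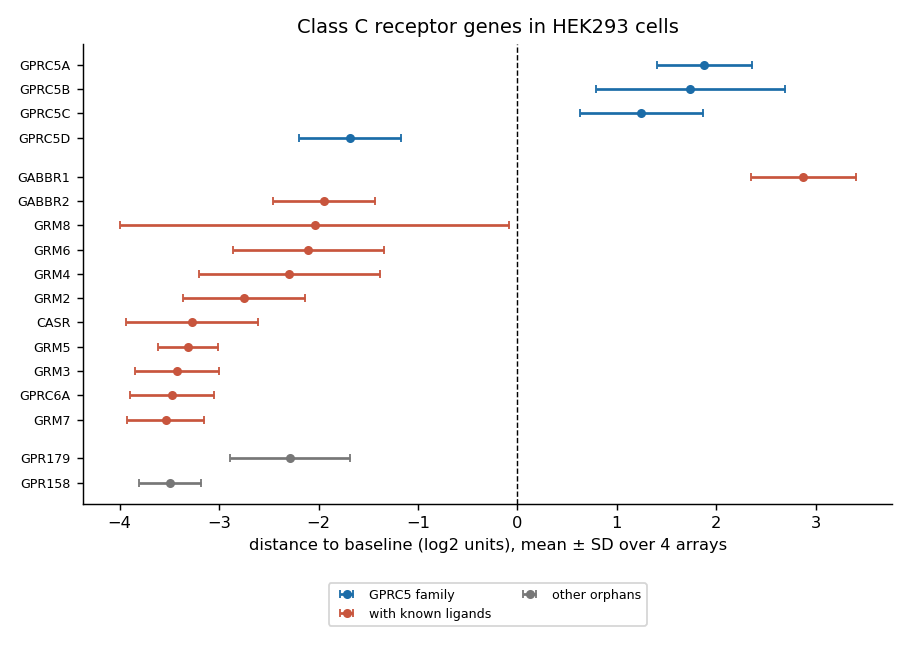
Points give the mean distance to the baseline in log2 units (x axis) and bars the SD over 4 arrays for the GPRC5 members, class C receptors with known ligands and other class C orphans (y axis). GPRC5A, GPRC5B, GPRC5C and GABBR1 lie to the right of the dashed line at 0, and distances of different genes do not rank their messages by amount.

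Because the family is named for its response to retinoic acid, the genes that make, carry, sense and break down retinoic acid were examined in the same cells. Over 6 lists 18 of 33 genes (54.5%) were detected and 16 passed the limma test, near the background of 52.7% and 45.9%, and the median distance was 0.45 against 0.26 over all genes.

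Retinoic acid acts through nuclear receptors of the RAR and RXR families, which pair on DNA. Of 6 such genes 4 were detected, against 52.7% of all genes. RXRB stood at 3.47 ± 0.77 and RARA at 2.56 ± 0.17 (SD, n = 4 for each). RXRA stood at 0.96 ± 0.75 (SD, n = 4, limma adjusted p = 0.0072), a call that did not hold without replicate 1, where it stood at 0.60 (limma adjusted p = 0.087). RARB, itself a classical retinoic acid target, was at 0.41 ± 0.59 (SD, n = 4, limma adjusted p = 0.252). RARG was at the baseline, at -0.019 ± 0.82, and RXRG below it, at -2.40 ± 0.86 (SD, n = 4 for each). NCOR1, a co-repressor that holds silent those receptors that lack ligand, stood at 3.72 ± 0.45 (SD, n = 4).

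Among carriers and uptake genes 4 of 6 were detected, against 52.7% of all genes. The fatty acid and retinoic acid binding protein FABP5 stood at 4.07 ± 1.06 and the cellular retinoic acid binding protein CRABP2 at 3.77 ± 0.80 (SD, n = 4 for each). STRA6, the membrane receptor that takes up retinol, was at 0.83 ± 1.05 (SD, n = 4, limma adjusted p = 0.020). Its test no longer passed without replicate 1, at 0.49 (limma adjusted p = 0.184), or without replicate 3, at 0.60 (limma adjusted p = 0.113). CRABP1 was at 0.45 ± 0.80 (SD, n = 4, limma adjusted p = 0.205), and without replicate 3 at 0.84 (limma adjusted p = 0.028).

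Of 7 genes for synthesis and storage 5 were detected, against 52.7% of all genes. These 5 also passed the limma test and exceeded the baseline on every array, against 45.9% and 45.0% of all genes. With 7 genes the share cannot be set apart from these backgrounds. ALDH1A2, which makes retinoic acid from retinal, stood at 3.48 ± 0.64 and ALDH1A3, an enzyme of the same step, at 1.30 ± 0.56 (SD, n = 4 for each). The retinol and retinal reductases and dehydrogenases RDH11, DHRS3 and RDH10 stood at 3.34 ± 0.76, 2.81 ± 0.65 and 1.81 ± 0.63 (SD, n = 4 for each). ALDH1A1 and LRAT, which stores retinol as an ester, lay below the baseline at -2.63 ± 0.62 and -3.25 ± 0.69 (SD, n = 4 for each). Of the 3 CYP26 enzymes that break retinoic acid down, 1 was detected, against 52.7% of all genes. It was CYP26B1, at 1.94 ± 0.55 (SD, n = 4, limma adjusted p = 5.1e-08). With a baseline of 3 SD CYP26B1 stood at 0.63 and no longer passed (limma adjusted p = 0.161). CYP26A1, a strongly retinoic acid-induced gene in many cells, lay at -2.76 ± 0.72 (SD, n = 4).

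Of 10 other genes known or named as retinoic acid-induced 3 (30.0%) were detected, against 52.7% of all genes. All 3 were RAI genes, whose symbol stands for retinoic acid-induced as the older GPRC5A symbol RAI3 did. RAI14 stood at 3.07 ± 0.67 and RAI1 at 1.94 ± 0.53 (SD, n = 4 for each). RAI2 was at 1.20 ± 1.24 (SD, n = 4, limma adjusted p = 0.00078), and at 0.65 without replicate 1 (limma adjusted p = 0.071). The other 7, HOX genes and RARRES genes among them, had distances from -3.48 to -1.28. No sample was treated with retinoic acid, so these values are of untreated cells and give no response of GPRC5 genes to it.

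**Figure D5:**
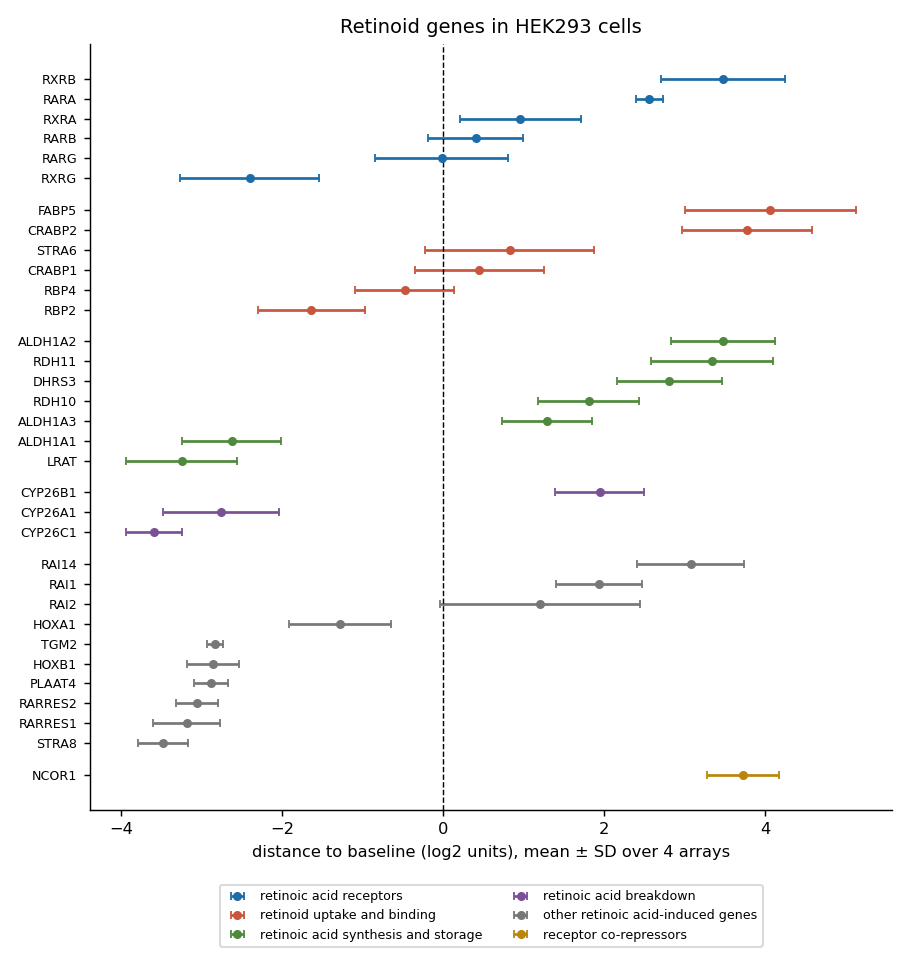
Points give the mean distance to the baseline in log2 units (x axis) and bars the SD over 4 arrays for 33 retinoid genes (y axis), coloured by list. Synthesis genes other than ALDH1A1 and LRAT lie to the right of 0, and 7 of the 10 other retinoic acid-induced genes lie to the left.

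A few proteins are known to act with members of the family. FYN, a Src family kinase that GPRC5B recruits, stood at 4.17 ± 0.61, and STAT3, a transcription factor whose activity GPRC5A restrains in lung, at 3.97 ± 0.99 (SD, n = 4 for each). EGFR, the epidermal growth factor receptor that phosphorylates GPRC5A, was within the spread of the baseline at 0.20 ± 0.50 (SD, n = 4, limma adjusted p = 0.558). It was read as the mean of 4 targets, and its highest target stood at 1.31 (limma adjusted p = 0.00033). The other gene in this list, SOCS3, lay below the baseline at -1.65 ± 0.62 (SD, n = 4). Of the 4 genes 3 were detected and 2 passed the limma test, against 52.7% and 45.9% of all genes.

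Plasma cells and hair follicles are the known sites of GPRC5D, so their markers were looked up beside it. Of 10 B cell and plasma cell markers 1 was detected, against 52.7% of all genes. It was SDC1, at 1.68 ± 0.79 (SD, n = 4), a proteoglycan that epithelial cells carry as well. Of 6 measured markers of hair and hard keratin cells 0 were detected, against 52.7% of all genes, and their distances ran from -3.15 to -2.45. The limma test called 0 of them also at an unadjusted p under 0.05. It is one-sided, so it could not call genes with a mean distance below 0.

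GPRC5A and GPRC5D lie next to each other in the RefSeq order of measured genes, and GPRC5B and GPRC5C lie on other chromosomes. The measured genes around the first pair were mixed. DDX47, an RNA helicase, stood at 3.59 ± 0.74 and HEBP1, a haem-binding protein, at 3.55 ± 0.40 (SD, n = 4 for each). FAM234B stood at 2.60 ± 0.82 (SD, n = 4) and CDKN1B at 0.65 ± 1.18 (SD, n = 4, limma adjusted p = 0.068). APOLD1 and GSG1 lay at -0.25 ± 0.84 and -2.35 ± 0.31 (SD, n = 4 for each). GPRC5D was the gene between GPRC5A and HEBP1. On 1 side of GPRC5B the nucleolar protein gene KNOP1 stood at 4.44 ± 0.17 (SD, n = 4). On the same side IQCK was at 0.09 ± 0.86 and VPS35L at -0.40 ± 0.67 (SD, n = 4 for each). The 3 nearest measured genes on the other side were below the baseline. Around GPRC5C 0 of 6 neighbours had a mean distance above 0 with this baseline. Over all members 6 of 18 different neighbours (33.3%) were detected, against 52.7% of all genes. Of the 18, 4 passed the limma test, against 45.9% of all genes. The count was 12 without SPATA5 and SPATA13 and 11 with olfactory receptor genes as controls. It was 11 with a baseline of the median plus 2 scaled median absolute deviations. The count of all genes also moved, from 6731 to 12747 of 17217 over all alternatives. These settings lower the baseline for all genes alike, so the higher counts are no result about the neighbours.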

How the data were processed

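The NimbleGen arrays were designed on the HG18 gene catalogue. The authors deposited log2 values, 1 per probe and array, made from scanned images with NimbleScan; the submitters' processing notes name RMA, and a background correction or normalization between arrays is not given in the sources used here. Sorted values were shared within replicates 1 and 2 and within replicates 3 and 4, which is how a table looks after each pair was quantile-normalized by itself. Spots were not checked for background or saturation, and the number of arrays limits the precision.

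The accession in each probe name, without its version, was looked up in a RefSeq table (GRCh38.p14), which named 19125 of 24000 targets and gave 17217 genes. The gene level was log2 of the mean linear probe value, averaged over targets. The study's rule was used, with a baseline of the mean plus 2 SD of the seminal control genes on each array (10 of 11 matched), and a gene was detected where its mean distance over the 4 arrays was above 0. Distances were also tested against 0, one-sided, with limma 3.58 (R 4.3), and p-values were adjusted by Benjamini-Hochberg over all 17217 genes with a threshold of 0.05. The prior degrees of freedom were infinite, so all genes shared a standard error of 0.351, and since a baseline shift moves all genes of an array together, the tests were not independent. The smallest p of an exact one-sided sign-flip test with 4 arrays is 0.0625.

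The members and lists were chosen with earlier results of these data known. Genes were named if they were members, control genes, in the class C, retinoid, partner or marker lists, or among the 3 nearest measured genes on either side of a member. Alternatives changed the baseline, controls, probe summary, target rule, normalization, call rule and arrays. Leaving out single probes was added after the data had been seen. Protein sequences were not used here, and some genes of the class C and retinoid lists are not reported here.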

Additional observations from a re-analysis of the deposited data

Results flagged for a closer look

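The level of GPRC5A stood apart on replicate 3, at 13.11 log2 units against 11.52 to 11.70 on the other arrays. The gap to the nearest array was 0.887 of the range, past Dixon's 95% critical value for 4 samples. After subtraction of the baseline, which was also highest on replicate 3, the ratio was 0.272. Of 54 gene or probe series examined 1 passed the critical value, and chance alone marks about 1 in 20.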

How the results depend on the processing

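No paired analysis was possible because the design holds a single group. Of the values for the 4 members and of the counts of detected genes, 186 alternatives stayed on their side of the threshold or within 1.5 times, 5 counts moved further, 3 values lost significance and 4 changed sign. The cause was not tested for any of these beyond the construction of each alternative. With 3 SD GPRC5A stood at 0.56 and GPRC5B at 0.42, both without significance, and GPRC5C at -0.072. GPRC5B also lost significance on replicates 1 and 3 alone, at 0.95. GPRC5D stood at 0.65 without SPATA5 and SPATA13, at 0.40 with olfactory receptor controls and at 0.024 with the median plus 2 scaled median absolute deviations. Leaving out single arrays kept GPRC5A at 1.70 to 2.05, GPRC5B at 1.43 to 2.11, GPRC5C at 0.96 to 1.42 and GPRC5D at -1.88 to -1.47. Over all alternatives 2 to 4 members were detected, 12 to 22 retinoid genes and 6731 to 12747 genes in all. Class C receptors outside the family gave 6 without SPATA5 and SPATA13 and 3 with olfactory controls, against 1. The neighbours gave 12 and 11 under the same settings and 11 with the median rule, against 6. These settings lower the baseline for all genes alike.

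Among the other named genes 540 values stayed, 27 gained and 14 lost significance, and 31 changed sign. With 3 SD the values were -0.91 for RARB, -0.36 for RXRA, -0.49 for STRA6, -0.87 for CRABP1, -0.022 for ALDH1A3, -0.12 for RAI2, -1.12 for EGFR, -1.23 for IQCK and -0.66 for NEFM. Also with 3 SD the limma call was lost for RDH10 at 0.49, CYP26B1 at 0.63, RAI1 at 0.62 and SDC1 at 0.37, and for ALDH1A3 at 1.03 on replicates 1 and 3 alone. The other lost calls were those of RXRA, STRA6 and RAI2 when arrays were left out. RARG stood at 1.30 with 1 SD. Without SPATA5 and SPATA13, with olfactory controls and with the median rule, RARG stood at 2.31, 2.06 and 1.69 and PAX2 at 0.70, 0.46 and 0.077. With the median of log2 probe values RARB stood at -0.17 and EGFR at -0.51, and with their mean EGFR at -0.039. Without single arrays RARG ran from -0.26 to 0.34, with 0.04 without replicate 1, IQCK from -0.22 to 0.42, with -0.06 without replicate 2, and NEFM from -0.49, without replicate 1, to 1.63. On replicates 1 and 2 alone RARG stood at 0.16, and on replicates 3 and 4 alone IQCK stood at -0.60. On replicates 1 and 3 alone EGFR stood at -0.20 and CRABP1 at -0.044. On replicates 2 and 4 alone RARG stood at 0.61, STRA6 at -0.021 and NEFM at -1.93.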
